A study of Mus musculus with 6 samples.

Results

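Cells that carried transcripts of an erythroid transcription factor and of platelet glycoproteins at the same time are described here, in lineage-negative (Lin-) haematopoietic stem and progenitor cells of mice with a Stag2 knockout and of wild type mice. A cell was taken when it had at least 500 detected genes, at least 1 unique molecular identifier (UMI, a tag that marks 1 captured transcript) of Klf1, at least 2 UMIs of Pf4, Gp1bb, Gp9 and Gp5 together, and less than 2% of its UMIs from the 4 adult globin genes. This rule found 315 cells, called co-expressing cells here, among 1400 Klf1-positive cells under the same globin limit, 24307 cells with at least 500 genes and 25636 deposited cells. They came from 3 Stag2 knockout mice (KO1 with 100, KO2 with 49 and KO3 with 70 cells) and 3 Stag2 wild type mice (WT1 with 18, WT2 with 46 and WT3 with 32 cells). Every library was prepared in the same way from Lin- cells with the 10x Chromium 3′ chemistry, version 2, and the labels differ in genotype and in the code at the end of the title. The sources used here do not state the age of the mice, the allele, the deleted part of Stag2 or any driver of the deletion. Where values of 3 mice follow each other they stand in the order KO1, KO2, KO3 or WT1, WT2, WT3. The levels of Klf1, Pf4, Gp1bb, Gp9, Gp5 and the globins within the co-expressing cells follow from the rule and are given as a description, without a test.

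Red cells and platelets arise from progenitors that can give rise to both lineages, and such progenitors switch on genes of both programmes at low level before they commit. Klf1 is a zinc finger factor that activates globin, haem and red cell membrane genes, and Gata1 is a zinc finger factor needed for the maturation of both red cells and megakaryocytes, the parent cells of platelets. Pf4 encodes platelet factor 4, a chemokine stored in platelet granules, while Gp1bb, Gp9 and Gp5 encode subunits of the glycoprotein Ib-IX-V complex, the platelet receptor of von Willebrand factor. Stag2 is a subunit of cohesin, the ring complex that folds chromatin into loops and holds sister chromatids together.

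The promoters of the 5 genes that defined the cells are printed because the cells were chosen by transcripts of these genes. The 3′ tags do not show at which start site a transcript began. Each stretch runs from 250 bases before to 50 bases after the RefSeq start on GRCm38.p6 and is read 5′ to 3′ on the strand of the gene. Capitals mark the 6-letter motifs AGATAA or TGATAA, bound by GATA factors, on either strand.
Klf1, chr8:84901732-84902031, plus strand: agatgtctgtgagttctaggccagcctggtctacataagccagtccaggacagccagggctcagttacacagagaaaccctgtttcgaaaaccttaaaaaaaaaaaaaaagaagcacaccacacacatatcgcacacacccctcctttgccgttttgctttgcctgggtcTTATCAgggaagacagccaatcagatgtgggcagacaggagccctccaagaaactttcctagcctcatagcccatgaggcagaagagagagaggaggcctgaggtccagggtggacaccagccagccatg
Pf4, chr5:90772185-90772484, plus strand: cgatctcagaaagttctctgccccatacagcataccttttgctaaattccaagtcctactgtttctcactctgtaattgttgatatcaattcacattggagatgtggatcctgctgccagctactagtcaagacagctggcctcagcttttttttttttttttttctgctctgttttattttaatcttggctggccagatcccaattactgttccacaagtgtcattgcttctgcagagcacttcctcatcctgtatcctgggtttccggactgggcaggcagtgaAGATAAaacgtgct
Gp5, chr16:30310732-30311031, minus strand: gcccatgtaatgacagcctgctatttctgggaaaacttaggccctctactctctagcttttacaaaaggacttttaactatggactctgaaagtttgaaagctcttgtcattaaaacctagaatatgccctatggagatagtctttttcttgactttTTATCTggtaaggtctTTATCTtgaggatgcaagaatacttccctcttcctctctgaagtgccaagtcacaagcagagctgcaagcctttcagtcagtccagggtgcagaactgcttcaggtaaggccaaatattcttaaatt
Gp9, chr6:87777820-87778119, plus strand: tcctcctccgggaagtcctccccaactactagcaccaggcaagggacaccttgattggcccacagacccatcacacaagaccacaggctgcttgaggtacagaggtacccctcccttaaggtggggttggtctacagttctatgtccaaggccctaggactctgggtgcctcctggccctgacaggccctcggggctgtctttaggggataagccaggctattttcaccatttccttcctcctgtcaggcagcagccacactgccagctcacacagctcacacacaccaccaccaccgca
Gp1bb, chr16:18622354-18622653, minus strand: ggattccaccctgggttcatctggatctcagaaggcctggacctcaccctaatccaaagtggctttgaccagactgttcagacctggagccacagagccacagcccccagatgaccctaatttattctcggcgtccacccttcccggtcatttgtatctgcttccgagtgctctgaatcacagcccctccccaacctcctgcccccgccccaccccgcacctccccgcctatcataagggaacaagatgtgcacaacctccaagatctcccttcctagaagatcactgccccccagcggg
Klf1 and Pf4 had 1 match each and Gp5 had 2, and Gp9 and Gp1bb had 0 in these windows. Of 32851 mouse promoters of the same length 18.6% held at least 1 such match. The motif CCNCNCCC, of the kind bound by KLF factors, was found 4 times in the Gp1bb window and 1 time in that of Gp9, and 49.5% of all promoters held it. A match is a description of the letters and does not show binding.

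The cells kept held 6048, 5814.5 and 6040.5 UMIs at the median in the knockout mice, against 4389.5, 5019 and 3659.5 in the wild type mice. Among Klf1-positive cells alone the medians were 8745, 8492.5 and 8620 UMIs in the knockout mice, against 9511, 8807 and 7244 in the wild type mice, and overlapped. The title codes of the samples began with XA for WT1 and the 3 knockout samples and with other letters for WT2 and WT3, and no source used here says what the letters mark. Libraries shared between 11 and 48 cell barcodes in each pair. Of the co-expressing cells 11 had a barcode that also occurred in another library, and 0 of these were co-expressing there. Stag2 in the co-expressing cells stood at 27.0, 24.4 and 22 normalized CPM (counts scaled to a common library size) in the knockout mice, against 63.1, 45.0 and 35.6 in the wild type mice. The genotypes did not overlap, yet the change did not pass in these few cells (log2 fold change -0.85 ± 0.30, SE, edgeR adjusted p = 0.485). Over all Klf1-positive cells it passed (-1.08 ± 0.20, edgeR adjusted p = 0.00582). Since 3′ tags may lie outside the deletion, they do not show how much intact transcript was left.

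Most co-expressing cells held few platelet UMIs. The median was 3, the highest 226, and 125 cells sat exactly at the limit of 2, while 315 Klf1-positive cells just outside the rule had 1. Klf1 itself was read once in 165 cells and more often in 150. Gp5 was seen in 73.0% of the co-expressing cells, Gp9 in 54.6%, Pf4 in 38.4% and Gp1bb in 36.5%. Of the 315 cells, 97 showed 1 of the 4 platelet genes, 135 showed 2, 61 showed 3 and 22 showed all 4. The highest globin share was 0.393%, and the globin limit kept out 1 cell that otherwise met the rule.

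Pooled over mice, genes of both programmes that the rule did not use were detected among the co-expressing cells. Gata1 was detected in 53.3% of the co-expressing cells, against 46.0% of the 1085 Klf1-positive cells with fewer than 2 platelet UMIs (Klf1-only cells) and 34.1% of the 942 cells with at least 2 platelet UMIs and no Klf1 (platelet-only cells). Itga2b, the integrin subunit CD41 of megakaryocytes and platelets, was detected in 45.1% of them, against 25.3% and 61.1% of Klf1-only and platelet-only cells. Epor, the erythropoietin receptor, was detected in 29.2%, against 22.1% and 10.7%. Car1, an early erythroid carbonic anhydrase, was detected in 56.8%, against 65.3% and 11.7%. The genotypes are mixed differently in these pools. Against Klf1-only cells the order of Gata1 was reversed in WT2 (54.3% and 55.5%) and WT3 (40.6% and 42.7%), that of Epor in WT1, and that of Car1 in KO1 and WT1. Against platelet-only cells the order of Itga2b was reversed in KO2 (57.1% and 56.4%). The other orders held in every mouse. Both sets of markers were thus present among the cells, with Vwf, von Willebrand factor of mature megakaryocytes and some stem cells, in 4.76% of cells and Gp6, a late platelet collagen receptor, in 0 of 315 cells. How many single cells carried both sets was not counted, and a mixture of cells could give the same percentages. Car1 was seen in 5 of the 43 cells with 10 or more platelet UMIs and in 174 of the other 272. Median depths were 9030 UMIs in the co-expressing cells, 8073 in Klf1-only cells and 8406 in platelet-only cells.

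Cells with T cell or basophil transcripts gave shares for comparison. Whether all of these cells lack Klf1 and the platelet genes was not tested. Of 2032 cells with at least 2 UMIs of the CD3 chains of T cells (median 3070.5 UMIs), 0.344% had 2 or more platelet UMIs and 0.689% had a Klf1 UMI. Of 3925 cells with at least 20 UMIs of the basophil proteases Mcpt8 and Prss34 (median 4880 UMIs), 1.12% and 2.73% did. The platelet share of these basophil protease cells was 1.80%, 0.815% and 2.04% in the knockout mice, against 0%, 0.956% and 0.646% in the wild type mice. It was thus higher in KO1 and KO3 than in any wild type mouse, with KO2 below WT2. In the CD3 cells it was 0.658%, 0% and 0%, against 0.279%, 0.205% and 0.510%. Among the Klf1-positive cells 22.5% had 2 or more platelet UMIs (exact 95% binomial interval 20.3% to 24.8%), at a median of 8364.5 UMIs. Thinned to 2000 UMIs per cell, the shares with 2 or more platelet UMIs were 4.42% of the cells that still showed Klf1, 0.0658% of the CD3 cells and 0.161% of the basophil protease cells. A score built from simulated mixtures of 2 cells marked 2.54% of the co-expressing cells as possible doublets, against 3.96% of Klf1-only cells. The share marked in each library was fixed by its number of cells, from 1.93% in KO2 to 5.42% in WT3, and was 3.67% of all kept cells. WT3 held 363 of the 1085 Klf1-only cells but 32 of the 315 co-expressing cells. The pooled shares thus also reflect the mix of libraries and do not rank the populations. In KO1 their order was reversed.

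The co-expressing cells made up a larger share of the Klf1-positive cells in every knockout mouse than in any wild type mouse. The share was 38.8% in KO1 (100 of 258 cells, exact 95% binomial interval 32.8% to 45.0%), 36.0% in KO2 (49 of 136, 28.0% to 44.7%) and 34% in KO3 (70 of 206, 27.5% to 40.9%). It was 13.6% in WT1 (18 of 132, 8.29% to 20.7%), 16.8% in WT2 (46 of 273, 12.6% to 21.8%) and 8.10% in WT3 (32 of 395, 5.61% to 11.2%). No interval of a knockout mouse touched that of a wild type mouse. The means were 36.3% ± 2.40 in knockout and 12.9% ± 4.43 in wild type mice (SD, n = 3 each), a 2.82-fold difference. The 2-sided exact permutation test of 3 against 3 mice gave p = 0.1, the smallest value it can give. Such intervals cover counting error only. Among the samples whose titles began with XA, the share in WT1 lay below that of every knockout mouse. WT1 was the only wild type sample with that prefix, so this comparison has no spread on the wild type side. A rise was not particular to Klf1-positive cells. Of the Klf1-negative cells, 6.19%, 5.10% and 6.23% had 2 or more platelet UMIs in the knockout mice, against 2.45%, 3.07% and 2.49% in the wild type mice. Those cells were also deeper in the knockout mice, with medians of 5774.5, 5634.5 and 5843 UMIs, against 4117, 4715 and 3418.

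**Figure D1:**
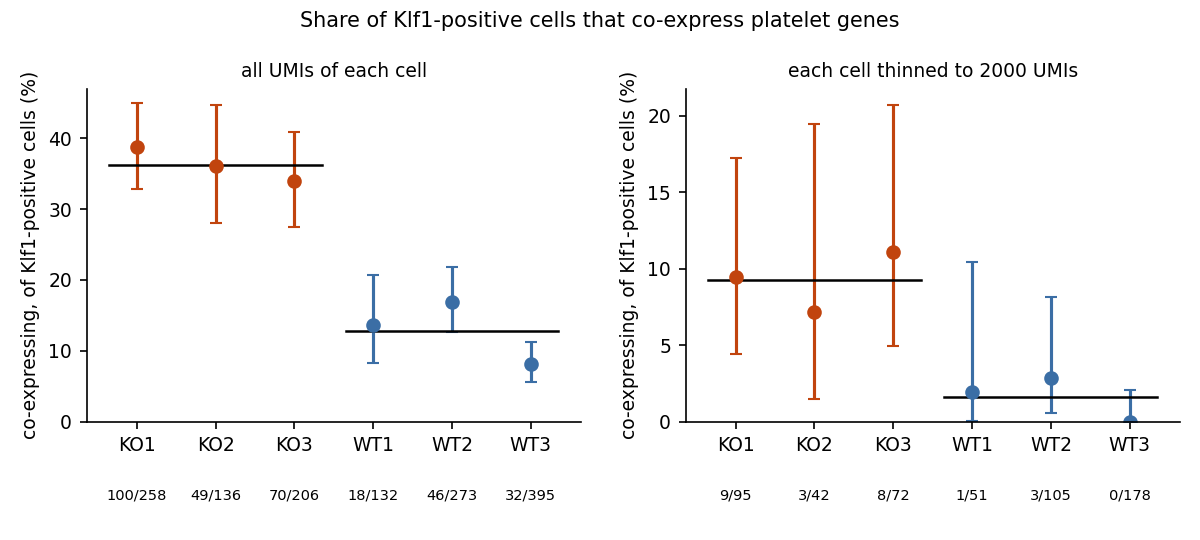
Share of Klf1-positive cells that co-express platelet genes (%), per mouse, with all UMIs of each cell (left) and with each cell thinned to 2000 UMIs (right). Points are mice with exact 95% binomial intervals, horizontal lines are group means, and co-expressing over Klf1-positive cells are printed under each mouse. The 3 knockout mice lie between 34% and 38.8% on the left and the 3 wild type mice between 8.10% and 16.8%.

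The order of the groups held at equal depth, with far smaller counts. After thinning to 2000 UMIs the share was 9.47% in KO1 (9 of 95 cells), 7.14% in KO2 (3 of 42) and 11.1% in KO3 (8 of 72), against 1.96% in WT1 (1 of 51), 2.86% in WT2 (3 of 105) and 0 in WT3 (0 of 178). A count of 0 of 178 allows a share of up to 1.69%. The means were 9.24% ± 1.99 and 1.61% ± 1.46 in knockout and wild type mice (SD, n = 3 each, exact permutation p = 0.1). Asking for 3 or more platelet UMIs gave 23.9% ± 2.66 in knockout and 6.22% ± 2.5 in wild type mice, and asking for 2 or more Klf1 UMIs gave 38.3% ± 6.89 and 11.8% ± 3.16. With both the thinning and these stricter limits the genotypes overlapped, at 1.98% and 0.971% for 3 or more platelet UMIs (exact permutation p = 0.5) and at 7.54% and 2.22% for 2 or more Klf1 UMIs (exact permutation p = 0.4).

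Against all cells the co-expressing cells were also more frequent in knockout mice, whereas against all platelet-positive cells the result depended on the UMI limits. They were 2.23%, 2.01% and 1.87% of all kept cells in the knockout mice, against 0.732%, 1.04% and 0.472% in the wild type mice (means 2.04% ± 0.186 and 0.749% ± 0.285, exact permutation p = 0.1). Of the cells with 2 or more platelet UMIs, 27.7%, 29.5% and 24.1% had Klf1 in the knockout mice, against 24.0%, 26.6% and 16.8% in the wild type mice. These means, 27.1% ± 2.78 and 22.4% ± 5.10, differed by less than the spread of the wild type mice (exact permutation p = 0.2). With 3 or more platelet UMIs the share was 28.1% ± 4.08 in knockout and 17.9% ± 4.91 in wild type mice, and with 2 or more Klf1 UMIs it was 12.9% ± 1.08 and 10.0% ± 1.93, in both cases without overlap (exact permutation p = 0.1). Without 1 mouse in turn, the difference at the original limits ran from 1.80 points (without WT3) to 6.71 points (without WT2). The knockout libraries held 261, 117 and 221 platelet-only cells beside their 158, 87 and 136 Klf1-only cells, and the wild type libraries held 57, 127 and 159 beside 114, 227 and 363.

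The whole distribution of platelet UMIs over the Klf1-positive cells was shifted. In the knockout mice, 38.4%, 33.8% and 40.8% of the Klf1-positive cells had 0 platelet UMIs, against 63.6%, 60.4% and 73.9% in the wild type mice. Cells with 3 to 4 platelet UMIs made up 14.3%, 14.7% and 13.6% of the Klf1-positive cells in the knockout mice, against 3.79%, 4.76% and 1.77% in the wild type mice. Cells with 10 or more made up 5.04%, 5.88% and 4.37%, against 1.52%, 2.93% and 0.759%. In each of these classes no knockout mouse overlapped a wild type mouse. Without the cells of 10 or more platelet UMIs the share of co-expressing cells was 32.8% in knockout and 11.3% in wild type mice, an alternative chosen after the data were seen.

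**Figure D2:**
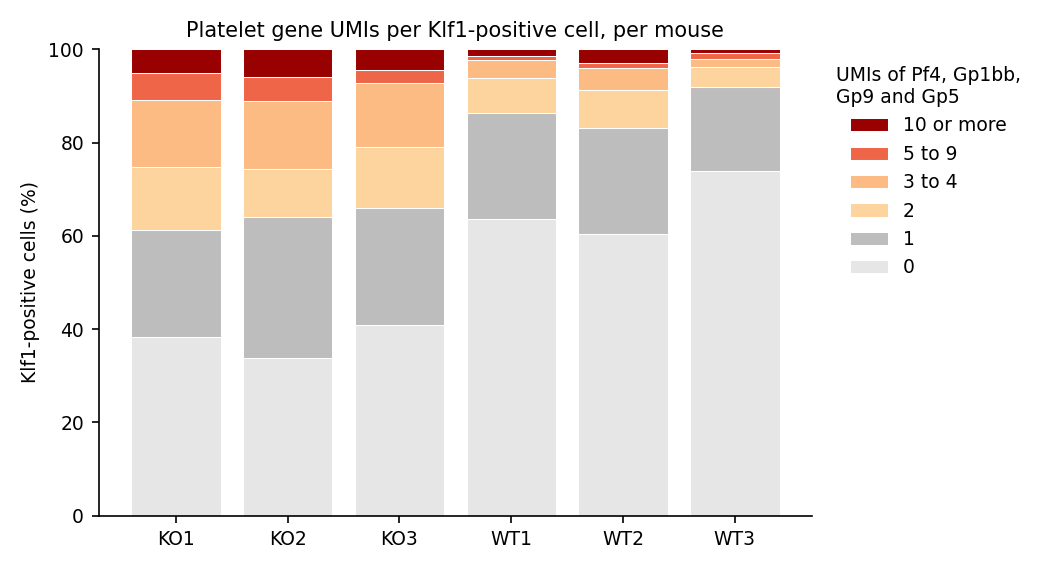
Klf1-positive cells of each mouse (%) by their summed UMIs of Pf4, Gp1bb, Gp9 and Gp5; orange and red classes (2 or more) are the co-expressing cells. The class with 0 platelet UMIs is 33.8% to 40.8% in the knockout mice and 60.4% to 73.9% in the wild type mice.

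Summed over all Klf1-positive cells of a mouse, a population chosen without platelet genes, the 4 platelet genes of the rule rose in the knockout mice. These sums count the same transcripts as the shares above and cannot tell more positive cells from more transcripts per cell. Pf4 had 266, 147 and 312 normalized CPM in the knockout mice, against 60.4, 98.9 and 71.5 in the wild type mice (log2 fold change 1.64 ± 0.22, SE, edgeR adjusted p = 0.000343). Gp5 had 66.9, 56.9 and 55.3, against 18.2, 28.7 and 18.7 CPM (1.43 ± 0.17, edgeR adjusted p = 0.000220). No knockout mouse overlapped a wild type mouse in either gene. Gp9 (1.55 ± 0.20, edgeR adjusted p = 0.000306) and Gp1bb (1.32 ± 0.26, edgeR adjusted p = 0.00916) rose by similar amounts, without overlap. The Gp1bb call ended without WT3 (1.07, edgeR adjusted p = 0.0680), and with the title prefix (XA or other) as a covariate Gp9 (1.36, edgeR adjusted p = 0.0844) and Gp1bb (1.41, edgeR adjusted p = 0.258) no longer passed. In that fit the genotype effect is the difference of the knockout mice from WT1 alone, the only wild type sample with the XA prefix. The spread of WT1 is assumed to be that of the other samples. For a call lost there, the prefix and the smaller comparison cannot be told apart.

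In the same sums 314 of 8960 genes passed in edgeR, which is 3.5% (1.44% higher and 2.06% lower in knockout mice). With the prefix covariate 72 genes passed, 63 of them among the 314, and without KO3, WT2 or WT3 the number was 155, 184 or 154. The megakaryocyte and platelet list holds the 4 genes of the rule, so its count and median here in part repeat the result above. A median without them was not computed. With them included, 11 of 22 tested genes of the list rose and 0 fell, with a median log2 fold change of 1.02 against 0.0015 over all genes. Beside the 4 genes of the rule these included Meis1, a homeobox factor of stem cells and megakaryocytes, Plek, a protein kinase C substrate of platelets, Rab27b, a GTPase of platelet granules, F2r, the thrombin receptor PAR1, Treml1, a receptor of platelet granules, and the adhesion receptor Adgrg1. Meis1 stood at 62.6, 84.5 and 70.5 CPM in the knockout mice, against 40.7, 37.1 and 28.6 in the wild type mice (1.05 ± 0.16, edgeR adjusted p = 0.00126), without overlap. With the prefix covariate the Meis1 call ended (0.81, edgeR adjusted p = 0.200). Itga2b, at 64.9 ± 11.4 and 44.5 ± 11.3 CPM (SD, n = 3 each), overlapped between the genotypes and did not pass (0.57, edgeR adjusted p = 0.106).

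The erythroid genes of the Klf1-positive cells moved the other way. Of the early erythroid list 16 of 32 tested genes fell and 2 rose, with a median of -0.64 on the log2 scale. Mt2, a metallothionein, had 65.8, 18 and 30.9 CPM in the knockout mice, against 162, 236 and 265 in the wild type mice (-2.44 ± 0.27, edgeR adjusted p = 0.000103). Aqp1, the red cell water channel, had 109, 65.8 and 86.6 CPM, against 189, 201 and 182 (-1.10 ± 0.14, edgeR adjusted p = 0.000306). Atp1b2, a sodium pump subunit, fell by 1.70 on the log2 scale (edgeR adjusted p = 2.54e-05), with no overlap. Of 12 haem synthesis genes tested, 4 fell, among them Alad (-0.61) and Urod (-0.50), while Alas1, the housekeeping form of the first enzyme, rose (0.94). With the prefix covariate Alad and Urod no longer passed, and Alas1 failed without KO1, KO3 or WT2. Gata1 averaged 75.5 ± 5.29 and 95 ± 5.48 CPM (SD, n = 3 each) without overlap and did not pass (-0.32, edgeR adjusted p = 0.162).

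**Figure D3:**
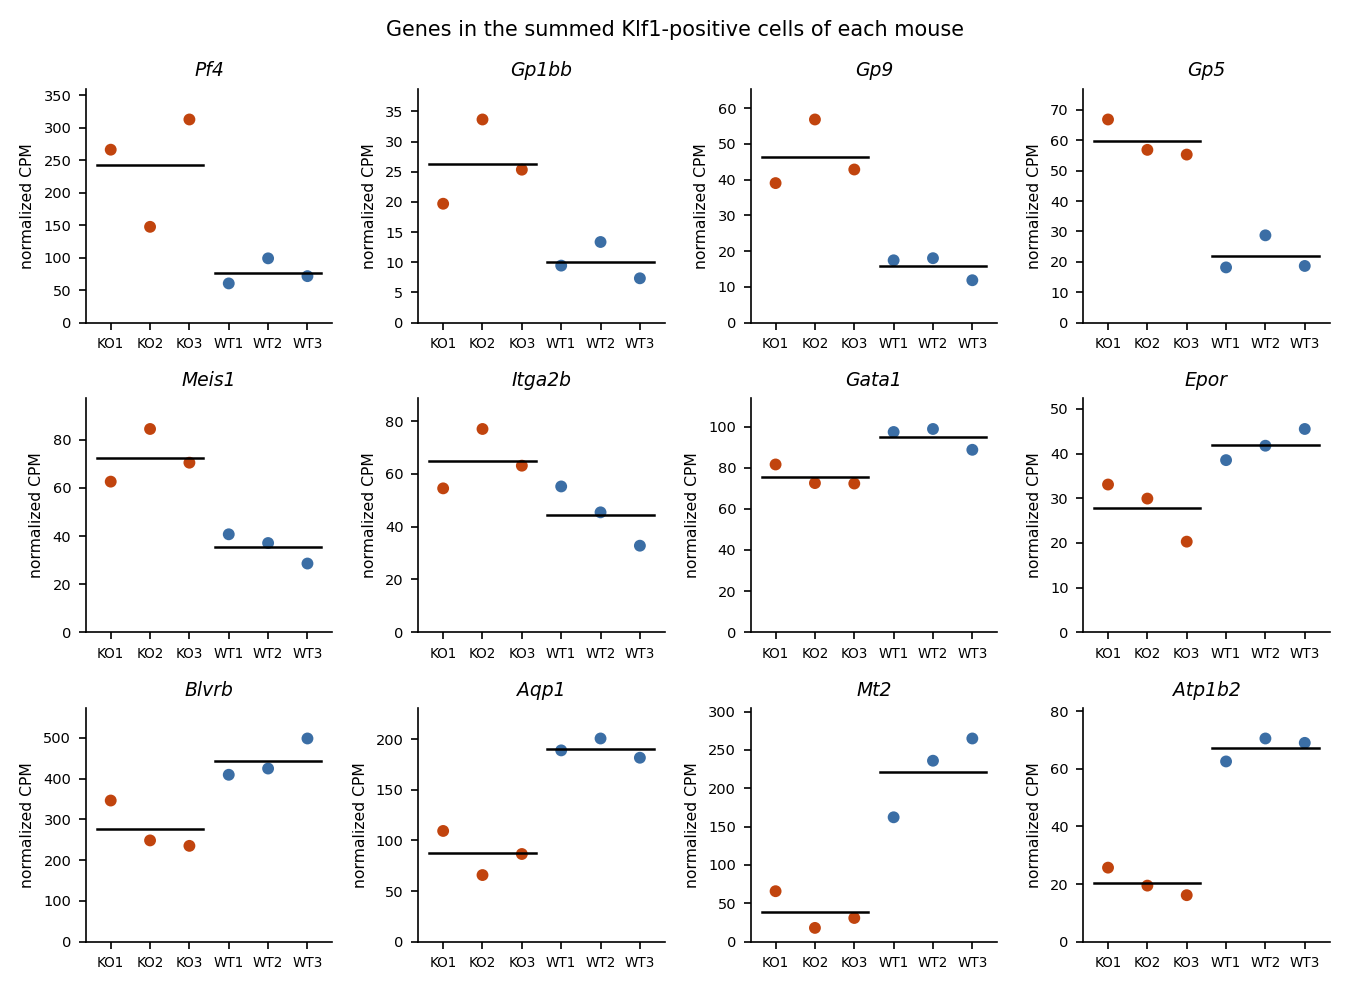
Normalized CPM of 12 genes in the summed Klf1-positive cells of each mouse; horizontal lines are group means and each axis starts at 0. Pf4, Gp1bb, Gp9, Gp5 and Meis1 are higher in all 3 knockout mice, Itga2b overlaps between genotypes, and Gata1, Epor, Blvrb, Aqp1, Mt2 and Atp1b2 are lower in all 3 knockout mice, of which Gata1 and Epor did not pass the test.

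Genes of other lineages moved in the same sums. Of 14 granulocyte genes tested 11 rose, among them Camp, the cathelicidin antimicrobial peptide (336, 205 and 107 CPM in the knockout mice, against 4.36, 1.67 and 12.4 CPM in the wild type mice), and S100a9, a subunit of calprotectin (499, 422 and 252, against 21.1, 12.4 and 77.2 CPM). Of 14 basophil and mast cell genes 2 fell, the protease Mcpt8 (371, 1048 and 1956, against 3532, 3623 and 2229 CPM) and Fcer1a, the alpha chain of the IgE receptor (25.7, 48.6 and 96.3, against 321, 325 and 164 CPM). Of 7 dendritic cell genes 5 fell, and of 5 T and NK cell genes 4 fell, with Cd3g at 0.704, 0.748 and 0 CPM in the knockout mice, against 7.27, 9.36 and 4.81 in the wild type mice. The Mcpt8 call ended without KO2, WT1 or WT2, in DESeq2 and with the prefix covariate, as did that of Cd3g with the prefix covariate. Cells with 20 or more UMIs of Mcpt8 and Prss34 were 3.10%, 5.88% and 9.71% of the Klf1-positive cells in the knockout mice, against 9.09%, 9.89% and 8.10% in the wild type mice. Their part in the gene changes was not tested. Without these cells the share of co-expressing cells was 38.5% in knockout and 13.8% in wild type mice. Also without cells of 20 or more UMIs of the granule genes Mpo, Elane, Prtn3 and Ctsg it was 41.5% and 14.0%.

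Inside the co-expressing cells few genes separated the genotypes, and 0 of the 14 tested factors shared by the erythroid and megakaryocyte lineages passed. Of 4877 genes tested 11 passed in edgeR, which is 0.226%, with 1 higher (0.0205%) and 10 lower (0.205%) in knockout mice; 353 genes had an unadjusted p under 0.05. The sums rest on 18 to 100 cells a mouse. No gene passed without KO3 or with the prefix covariate, 3 passed without WT2 and 34 without WT1. The 10 genes named below as passing all lost the call without KO3 and with the prefix covariate, 9 of them without WT2 and 6 without KO1, and each kept its direction in every alternative that could test it.

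Gm2a, the activator protein of ganglioside breakdown in lysosomes, had 7.21, 8.88 and 13.2 CPM in the co-expressing cells of the knockout mice, against 63.1, 61.9 and 32.9 CPM in those of the wild type mice (-2.43 ± 0.39, edgeR adjusted p = 0.0127). Gstp1, a glutathione transferase with a near-identical neighbour gene, had 21.6, 17.8 and 11.8 CPM, against 44.2, 99.4 and 63.0 (-2.09 ± 0.33, edgeR adjusted p = 0.0127). Atp1b2 had 21.6, 15.5 and 10.3 CPM, against 69.5, 54.4 and 63.0 (-1.83 ± 0.31, edgeR adjusted p = 0.0179). In these 3 genes every knockout mouse lay below every wild type mouse. Hist1h2ap, a replication-dependent histone with near-identical copies whose counts are therefore uncertain, had 178, 291 and 207 CPM, against 644, 775 and 1123 (-1.94 ± 0.22, edgeR adjusted p = 0.00110). Smaller falls were those of Erh (-1.22), a small conserved nuclear protein, the histone Hist1h2bc (-1.21), the tetraspanin Cd81 (-0.95) and Alox5ap (-0.94), which activates leukotriene synthesis. Ccl5, a chemokine of T and NK cells, fell by 2.01 on the log2 scale (13.2 ± 5.95 and 51.9 ± 10.0 CPM, edgeR adjusted p = 0.0233). Beside it, the 3 CD3 chains summed to 1.75, 4.18 and 1.48 CPM in the co-expressing cells of the knockout mice, against 22.2, 5.35 and 10.7 CPM in those of the wild type mice, with Cd3e at 0 in all 6, and their part in this fall was not tested.

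Camp was the 1 gene that passed upward, at 35.1, 42.2 and 27.9 CPM in the knockout mice, against 6.31, 1.88 and 5.48 in the wild type mice (3.11 ± 0.52, edgeR adjusted p = 0.0179). The 15 granulocyte list genes summed to 2116, 850 and 732 CPM in the co-expressing cells of the knockout mice, against 515, 707 and 5516 CPM in those of the wild type mice. The list as a whole thus overlapped between the genotypes, with WT3 the highest of all 6 mice, and the part of such RNA in the Camp value was not tested.

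Regulators of both lineages did not pass. Zfpm1, a cofactor of Gata1, had 99.1, 97.7 and 96.9 CPM in the co-expressing cells of the knockout mice, against 75.8, 54.4 and 65.7 in those of the wild type mice (0.65, edgeR adjusted p = 0.435). Tal1, a basic helix-loop-helix factor of both lineages, and the ETS factor Etv6 were likewise higher in every knockout than in any wild type mouse (edgeR adjusted p = 0.632 and 0.711). With 3 against 3 mice, a gene without a genotype effect separates fully, in either direction, with a probability of 0.1. The share of all tested genes that separated in this way was not counted, so these separations are no result about the regulators. In the other regulators named here the genotypes overlapped. Gata1 had 101, 86.6 and 88.1 CPM in the co-expressing cells of the knockout mice, against 120, 103 and 68.4 in those of the wild type mice (-0.02 ± 0.22, edgeR adjusted p = 0.999). Gata2, which acts before Gata1, had 191 ± 38.3 and 176 ± 63.8 CPM (SD, n = 3 each; 0.17, edgeR adjusted p = 0.905). Fli1 (0.37), an ETS factor of megakaryocytes, Runx1 (0.52), Gfi1b (-0.34) and Itga2b (0.32) did not pass either, nor did Epor (-0.66, 38.0 ± 11.2 and 53.3 ± 35.8 CPM). With standard errors between 0.25 and 0.35 for these 5 genes, changes of this size were not detectable in the cells available. Of 26 early erythroid genes tested 1 fell and of 15 megakaryocyte and platelet genes 0 passed, with medians of -0.44 and 0.34 against -0.0032 over all genes.

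The genes of the rule are given for completeness. In the co-expressing cells Klf1 averaged 227 ± 25.1 CPM in knockout and 211 ± 32.3 CPM in wild type mice, and Pf4 697 ± 283 and 558 ± 87.0 (SD, n = 3 each). Gp9 averaged 110 ± 26.7 and 64.5 ± 2.59 CPM, Gp5 140 ± 4.40 and 104 ± 3.09, and Gp1bb 68.8 ± 20.1 and 62.9 ± 13.3. These levels depend on the limits of the rule, so they give no result about genotype inside the co-expressing cells.

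Most genes that fell inside the co-expressing cells also fell in the Klf1-only cells, where 278 of 7971 genes passed in edgeR, which is 3.49% (1.54% higher and 1.94% lower). The 2 fits share no cells but share the mice. Gm2a stood at -2.43 in the co-expressing and -1.91 in the Klf1-only cells, Gstp1 at -2.09 and -2.68, Atp1b2 at -1.83 and -1.52, Erh at -1.22 and -0.99 and Cd81 at -0.95 and -0.77, as log2 fold changes of knockout over wild type mice. All 5 passed in both populations. In the Klf1-only cells Meis1 rose (0.93 ± 0.16, a call that ended at 0.82 with the prefix covariate), while in the co-expressing cells it stood at 0.34 ± 0.26 without passing. Car1 and Epor fell in the Klf1-only cells (-0.56 and -0.76, edgeR adjusted p = 0.012 and 0.039) and did not pass in the co-expressing cells (0.06 and -0.66). The difference between the populations did not pass for any of these 3 genes (edgeR adjusted p = 0.872 for Meis1, 0.486 for Car1 and 0.999 for Epor).

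The difference of the genotype effects passed for 23 of 7656 genes, which is 0.3% (5 higher, 0.0653%, and 18 lower, 0.235%, in the co-expressing cells); 411 had an unadjusted p under 0.05. The 18 were led by granule genes of neutrophils and their progenitors. S100a8, the partner of S100a9 in calprotectin, had 131, 109 and 63.8 CPM in the co-expressing cells of the knockout mice, against 5.91, 27.2 and 472 in those of the wild type mice. In the Klf1-only cells it had 1668, 1082 and 1057 CPM in the knockout mice, against 19.9, 30.4 and 359 in the wild type mice. The difference of effects was -3.90 ± 0.22 on the log2 scale (edgeR adjusted p = 1.22e-13). This SE was derived from the F statistic of the test and does not measure the spread of the mice. S100a8 was lower in the co-expressing than in the Klf1-only cells in 5 mice and higher in WT3. Hist1h2bc, at -1.21 in the co-expressing and -0.04 in the Klf1-only cells, was also among the 18 (difference -1.22, edgeR adjusted p = 0.0118). The difference was -3.10 for S100a9, -2.60 for the granule protease Prtn3 and -1.95 for the granule protease Ctsg.

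WT3 had the highest S100a8, Prtn3 and Ctsg of all 6 mice in the co-expressing cells. Without WT3 the calls ended for Fcnb (-5.16), Wfdc21 (-1.22), Rgcc (-1.25), Ms4a3 (-1.17) and Gstm1 (-1.19), as well as for Mgst1, Igsf6, SKIV2L2 and H2-Aa, and that of Trem3 turned to 3.07 without passing, while S100a8, S100a9, Prtn3 and Ctsg kept theirs. The Ctsg call ended without KO3 (-1.71, edgeR adjusted p = 0.0733), and Prtn3 and Ctsg did not pass in DESeq2. In the other direction Cd74 and H2-Aa, genes of antigen presentation, and Ly6d, a surface protein of lymphoid progenitors, had differences of 4.83, 3.55 and 3.67. Cd74 had 6.00, 85.2 and 89.4 CPM in the co-expressing cells of the knockout mice, against 5.91, 9.08 and 10.7 in those of the wild type mice, so KO2 and KO3 alone were high. With cells marked as possible doublets removed, Cd74 (2.26, edgeR adjusted p = 0.125), Ly6d (1.54, 0.890) and H2-Aa (1.63, 0.852) no longer passed in edgeR.

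**Figure D4:**
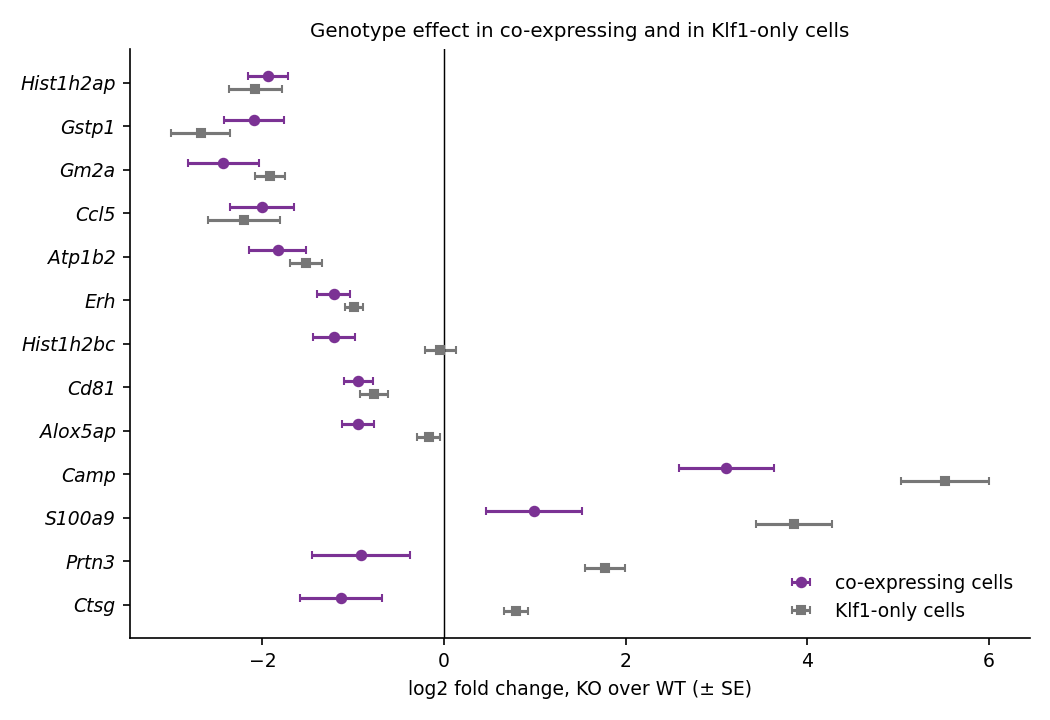
Log2 fold changes of knockout over wild type mice with standard errors in the co-expressing cells (circles) and the Klf1-only cells (squares). Gm2a, Gstp1, Atp1b2, Erh and Cd81 lie left of 0 in both populations, while Prtn3 and Ctsg lie right of 0 in Klf1-only cells and left of 0 in co-expressing cells, where neither passed.

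Set against the Klf1-only cells of the same mice, the co-expressing cells had more transcripts of early megakaryocyte genes that the rule did not use. Of 6818 genes 236 passed in edgeR, which is 3.46% (1.11% higher and 2.35% lower in the co-expressing cells). Of the megakaryocyte and platelet list 11 of 15 tested genes rose and 0 fell, with a median of 0.71 against 0.0054 over all genes. SDPR, a caveolae protein abundant in platelets, had between 15.6 and 32.3 CPM in the co-expressing cells of the 6 mice, against 0 to 2.81 in their Klf1-only cells (3.59 ± 0.39, edgeR adjusted p = 1.42e-06). These SDPR levels do not describe the co-expressing cells evenly. Pooled over mice, 43 cells with 10 or more platelet UMIs held 44 SDPR UMIs (97.8 CPM), and the other 272 cells held 25 (8.44 CPM). Meis1 had 89.7, 144 and 119 CPM in the co-expressing cells of the knockout mice and 139, 92.6 and 62.0 in those of the wild type mice, against 45.5, 55.3, 48.4, 27.5, 25.1 and 24.8 in the Klf1-only cells of the same mice in the same order (1.44 ± 0.15, edgeR adjusted p = 6e-07). The populations did not overlap in either gene.

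Further rises of the co-expressing cells over Klf1-only cells, each seen in 6 of 6 mice, were those of Nrgn (1.69), a calmodulin-binding protein, Slc14a1 (1.34), the urea transporter of red cells, Gng11 (1.22), a G protein subunit, Mef2c (1.12), a factor of megakaryocytes and lymphoid cells, and Itga2b (1.09), with edgeR adjusted p between 5.84e-07 and 1.50e-04 except for Nrgn at 3.36e-09. Few erythroid genes differed. Of 30 early erythroid genes tested 3 rose and 0 fell, with a median of 0.14, and Gata1 stood at 91.3 ± 16.2 and 83.4 ± 14.5 CPM (SD over 6 mice; 0.14, edgeR adjusted p = 0.740). Of 12 haem synthesis genes Alas1 alone passed, downward (-1.47), and of 7 late erythroid genes 0 passed.

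Genes of other lineages were lower in the co-expressing than in the Klf1-only cells. Of 12 basophil and mast cell genes tested 9 fell and of 11 granulocyte genes 11 fell, with medians of -1.76 and -2.31. Mcpt8 fell by 2.96 on the log2 scale (edgeR adjusted p = 3.36e-09), and Tyrobp, an adaptor of myeloid receptors, had 109, 134, 142, 151, 174 and 94.4 CPM in the co-expressing cells of KO1 to KO3 and WT1 to WT3, against 334, 627, 529, 542, 449 and 431 in their Klf1-only cells (-1.82 ± 0.10, edgeR adjusted p = 2.72e-11). Cells with 20 or more UMIs of Mcpt8 and Prss34 were 1.27% of the co-expressing and 9.49% of the Klf1-only cells, and their part in these falls was not tested. With every cell thinned to 2000 UMIs 89 of 2170 genes passed, of which 74 were among the 236.

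Set against the platelet-only cells, the co-expressing cells had more erythroid and fewer stem cell and late megakaryocyte transcripts. Of 6652 genes 718 passed in edgeR, which is 10.8% (4.86% higher and 5.94% lower in the co-expressing cells). Of 24 early erythroid genes tested 17 rose and 0 fell, with a median of 0.85 against 0.019 over all genes. Car1 had 2047, 1117 and 1118 CPM in the co-expressing cells of the knockout mice and 837, 1498 and 1796 in those of the wild type mice, against 130, 66.7, 17.2, 210, 94.3 and 40.2 in the platelet-only cells of the same mice (4.20 ± 0.28, edgeR adjusted p = 1.45e-09). Ermap, a red cell membrane protein, had 12.3 to 78.7 CPM, against 0 to 7.44 (5.91 ± 0.46, edgeR adjusted p = 1.22e-08). The populations did not overlap in either gene. Epor rose by 1.77, Blvrb, biliverdin reductase B of red cells, by 2.22, Tspo2, an erythroid cholesterol-binding protein, by 3.22 and Gata1 by 0.80, each in 6 of 6 mice, and the Gata1 call ended with every cell thinned to 2000 UMIs.

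Of 19 megakaryocyte and platelet genes tested 16 fell and 0 rose in the co-expressing against the platelet-only cells, and of 17 stem cell and multipotent progenitor genes 11 fell. Cd9, a tetraspanin of platelets, had 121 ± 41.8 and 269 ± 90.7 CPM (SD over 6 mice; -1.20 ± 0.11, edgeR adjusted p = 1.57e-07). Cd34, a sialomucin of progenitors, fell by 1.45 and Hlf, a stem cell factor, by 1.61 on the log2 scale, each in 6 of 6 mice. With the platelet-only cells limited to those with 5 or more platelet UMIs the Cd34 call ended, and the falls of Mcpt8, Prss34 and Cpa3 turned into rises (0.67, 0.62 and 1.12), so basophil genes gave no stable direction here.

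**Figure D5:**
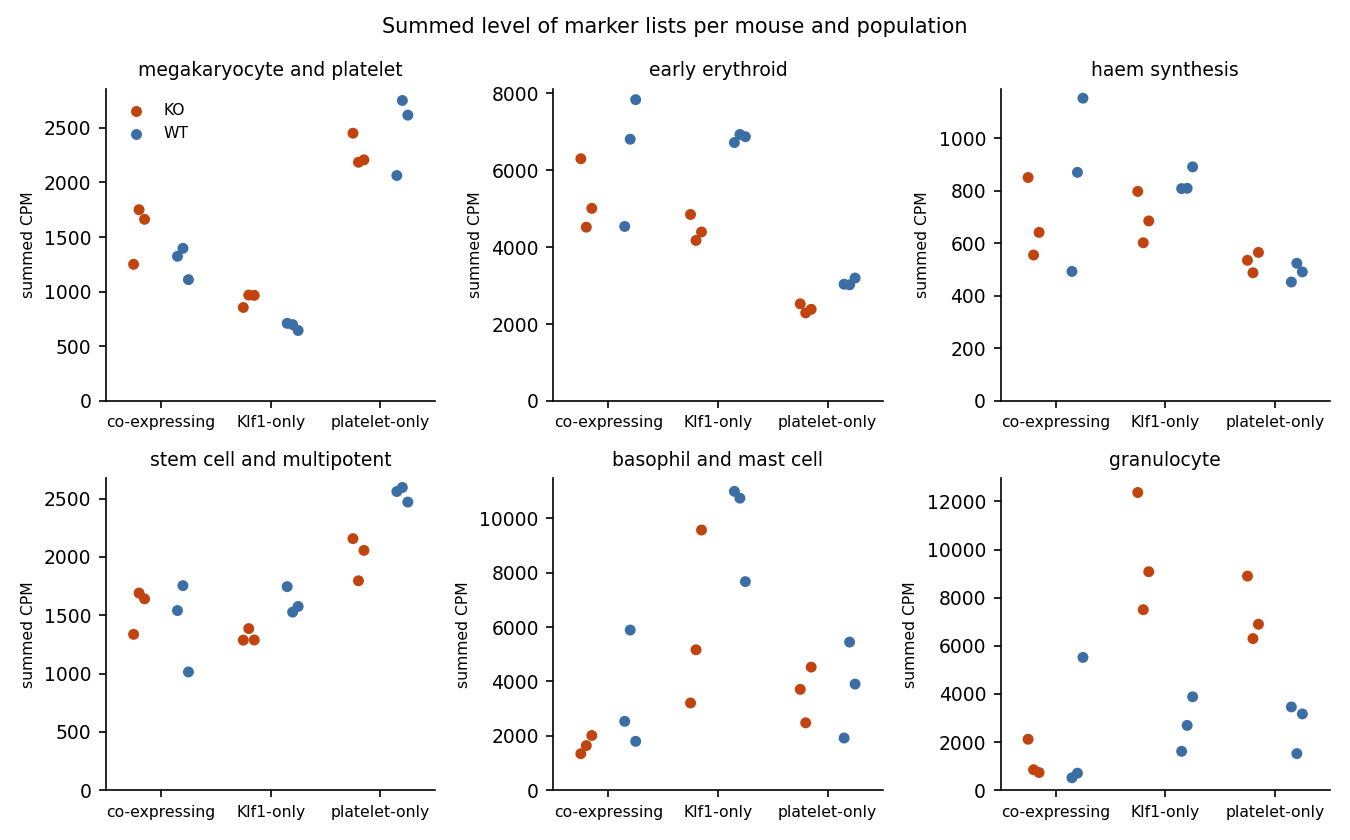
Summed CPM of 6 marker lists, without the genes of the rule, in the co-expressing, Klf1-only and platelet-only cells of each mouse; each point is 1 mouse and each axis starts at 0. The megakaryocyte and platelet list lies between 1110 and 1751 CPM in the co-expressing cells, 645 and 969 CPM in Klf1-only cells and 2064 and 2751 CPM in platelet-only cells, and the early erythroid list between 4519 and 7836, 4174 and 6930, and 2289 and 3196 CPM.

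The list sums placed the co-expressing cells between their neighbours in every mouse for the megakaryocyte genes and above the platelet-only cells in every mouse for the erythroid genes. The 31 megakaryocyte and platelet genes outside the rule summed to 1251, 1751 and 1663 CPM in the co-expressing cells of the knockout mice and to 1324, 1397 and 1110 in those of the wild type mice. In WT1 and WT2 the erythroid sum also lay between those of the neighbours, in WT1 nearer the platelet-only cells. The 33 early erythroid genes summed to 6299, 4519 and 5009 CPM in the knockout mice, against 4538, 6807 and 7836 in the wild type mice, which overlap. In the Klf1-only cells the same sum was 4849, 4174 and 4394 CPM in the knockout mice, against 6720, 6930 and 6872 in the wild type mice, which do not.

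The co-expressing cells were not uniform. In 43 of them, 30 from knockout and 13 from wild type mice, 10 or more platelet UMIs were found, and these 43 held 73.1% of the 3146 platelet UMIs of all 315. A split on the rule's own genes allows no test, and the values that follow are a description of pooled cells. The 43 cells had 262 CPM of Itga2b and 28.9 of Vwf, against 63.1 and 1.69 CPM in the other 272. They had 40.0 CPM of Car1, 80.0 of Blvrb and 0 of Ermap, against 1738, 410 and 59.1 CPM, and 111 CPM of Klf1 against 232. Car1 was seen in 5 of the 43 cells and in 174 of the 272, while Gata2 was seen in 38 and 215.

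The authors' own cluster numbers, given per library, put most co-expressing cells into clusters that also held many of their neighbours. Between 2 and 5 of the 10 to 13 clusters of a library held such cells. In the knockout mice, 86.0%, 100% and 88.6% of them lay in the 3 clusters richest in Klf1-only cells, against 100%, 95.7% and 93.8% in the wild type mice. For the 3 clusters richest in platelet-only cells the figures were 86.0%, 100% and 74.3% in the knockout mice, against 100%, 95.7% and 93.8% in the wild type mice.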

How the data were processed

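Per the labels, libraries of polyA RNA from Lin- cells were made with the 10x Chromium 3′ kit, version 2. The authors deposited for each sample raw UMI counts of every cell and gene, in whole numbers, together with their own cluster numbers. No source used here names the aligner or the genome build. Genes absent from 1 table were taken as 0 in it. Counts were summed per mouse over each cell population (180479 to 1143308 UMIs over the co-expressing cells) and tested with edgeR 4.0.16 by its quasi-likelihood test, after its low-count filter and with TMM factors, and p-values were adjusted by Benjamini-Hochberg over every tested gene with 0.05 as the threshold. Between populations the mouse was a block. Each SE of a log2 fold change was derived from that fold change and the F statistic of its edgeR test. CPM carry the TMM factors, except in list sums and pooled cells. DESeq2 1.42.0 and other settings were alternatives. Shares were compared with 2-sided exact permutation tests. Thinning drew 2000 UMIs from each cell without replacement and left out shallower cells, 3, 4 and 2 Klf1-positive cells of the knockout mice and 1, 8 and 7 of the wild type mice. Between genotypes the rule named, per direction, the 12 most changed genes past 0.05 without overlap and at 10 CPM or more. Between populations it named the 10 most changed at 50 CPM or more that moved alike in 6 mice. Up to 4 genes per list and a fixed set of regulators were added, and other list genes were named after their values were seen. Cells, lists and genes were chosen with earlier results of these data known. Sample numbers follow accession order. The test step was tested on simulated data. Promoters are from RefSeq (GRCm38.p6), where 6 of 6 genes looked up matched. Results of some single genes that the rule names are not reported here, though list counts and sums include them.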

Additional observations from a re-analysis of the deposited data

Results flagged for a closer look

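The effect of the genotype differed between co-expressing and Klf1-only cells of the same mice for 23 genes by a test of the difference itself (edgeR with the mouse as a block). For the 17 of them named here, in log2 units, the effect in the co-expressing cells minus that in the Klf1-only cells was 4.83 for Cd74, 3.67 for Ly6d, 3.55 for H2-Aa, 2.13 for SKIV2L2, an RNA helicase, and 2.07 for S100a6, a calcium-binding protein. It was -4.33 for Fcnb, the lectin ficolin B, -4.23 for Trem3, a myeloid receptor, -3.90 for S100a8, -3.87 for Wfdc21, -3.57 for Mgst1, a microsomal glutathione transferase, -3.23 for Rgcc, a cell cycle regulator, and -3.10 for S100a9. It was -2.62 for Igsf6, -2.60 for Prtn3, -2.12 for Ms4a3, -2.01 for Gstm1 and -1.95 for Ctsg. The granulocyte list summed to 2116, 850 and 732 CPM in the co-expressing cells of the knockout mice, against 515, 707 and 5516 in those of the wild type mice, and its part in these differences was not tested.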

How the results depend on the processing

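No paired analysis was possible because replicate numbers follow accession order and pair nothing. The shares kept their order between the genotypes without any 1 mouse: the difference of knockout minus wild type means ran from 21.0 to 25.4 points for the share of Klf1-positive cells and from 6.70 to 8.69 points at equal depth. Counts of passing genes moved more. Between genotypes in the co-expressing cells (11 genes) 60 passed without the low-count filter, 0 with the prefix covariate, 3 after thinning and 0 to 34 without 1 mouse. In all Klf1-positive cells (314) 195 passed in DESeq2, 619 without the filter, 72 with the prefix covariate and 154 to 299 without 1 mouse. In Klf1-only cells (278) these were 167, 510, 79 and 151 to 279. For the difference of genotype effects (23) DESeq2 gave 8, no filter 51 and leaving out 1 mouse 14 to 30. Against Klf1-only cells (236) DESeq2 gave 153, no filter 407 and thinning 89. Against platelet-only cells (718) DESeq2 gave 381, thinning 135 and leaving out 1 mouse 328 to 716. Reversals were few: the Trem3 difference ran from -5.35 to 3.07 without 1 mouse, and against platelet-only cells with 5 or more platelet UMIs Pglyrp1 (0.19), Cpa3 (1.12), Prss34 (0.62), Mcpt8 (0.67), Gstm1 (0.27) and Ly6c2 (0.14) turned positive. The causes of these shifts were not tested. Thinning left fewer genes to test. The prefix covariate leaves WT1 alone as the wild type side, and WT1 has 18 co-expressing cells, which limits what its lost calls show.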
